A study of Mus musculus with 2 samples.

Results

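The regions described here are 217 sites bound by PPARγ in mouse brown adipose tissue (BAT) that are strong and stand alone. They were chosen by measured values out of 3557 regions deposited as specific to BAT, which is 6.10% of that list, and out of 8268 regions in the series. A region was taken when its deposited score was at or above the 90th percentile of the BAT list and when no other BAT-specific region, and no region specific to epididymal white adipose tissue (eWAT), had its midpoint within 12.5 kb. The score that the authors deposited has no stated unit. It is read below as a measure of how strong a region is within the BAT list alone.

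PPARγ is a nuclear receptor and the main driver of fat cell formation. It binds DNA as a heterodimer with the retinoid X receptor, mostly at enhancers away from gene starts, and it is needed in both brown and white fat cells. Brown fat cells burn fatty acids to make heat, and transcription factors such as EBF2, which the series title names, are known to direct PPARγ to genes of the brown programme. Enhancers often lie close together in groups, and 12.5 kb is a distance commonly used to join neighbouring enhancers into such groups. A strong region with no neighbour within that distance would not be joined to another region of the 2 lists at that setting.

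The labels name no allele or agent for either group. Both came from male mice of strain 129SV, 8 to 10 weeks old, on normal chow and a regular light and dark cycle, with tissue taken at zeitgeber time 10 h. By the labels, BAT and eWAT differ only in the depot, and chromatin was precipitated with the same PPARγ antibody. Library depth is unknown and the lists differ in length and in score steps, so the libraries may differ in more than the depot. ChIP DNA of 4 mice was pooled for each depot, so there is 1 library per tissue, the spread between animals is not known, and no difference between depots or between classes of region has a replicate check or a test. Whole tissue was used, so fewer fat cells and less binding per fat cell cannot be told apart. The label of the regions as strong and isolated holds only against the 2 deposited lists, because regions bound in both depots are not analysed here. A region called isolated here may therefore lie beside a site shared by both depots.

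Positions are given as mm9, 1-based. The submitters' processing notes name mm8 and mm9, and the lists do not say which one they use. Genes are not assigned to the regions and no sequence is printed, since the gene and sequence tables used here are of build GRCm38. Neither the score nor the absence of close neighbours is a finding, because both chose the members.

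Members were spread over a wide range of scores. They ran from 6.87 to 16.55 with a median of 8.45 and quartiles of 7.49 and 9.75. BAT scores fall on even steps of 0.0687, the pattern of scaled counts, so the members span 100 to 241 steps. Read as counts, the 241 steps of the highest member have an exact 95% Poisson interval of 212 to 273, for counting error only. Of the 217 members, 82 scored under 8, 50 scored 10 or more and 17 scored 12 or more.

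The threshold fell within a run of near-equal scores. The 5 members at the threshold, each with a score of 6.87, lay at chr1:177290395-177290594, chr14:73968630-73968829, chr14:98805602-98805801, chr5:124428530-124428729 and chr8:94532693-94532892. The 5 isolated regions just outside it each scored 6.80, which is 99 steps. They lay at chr10:36947846-36948045, chr12:100425963-100426162, chr17:46859388-46859587, chr18:9393294-9393493 and chr3:14694480-14694679. A single step thus separates the last members from the first regions left out.

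**Figure D1:**
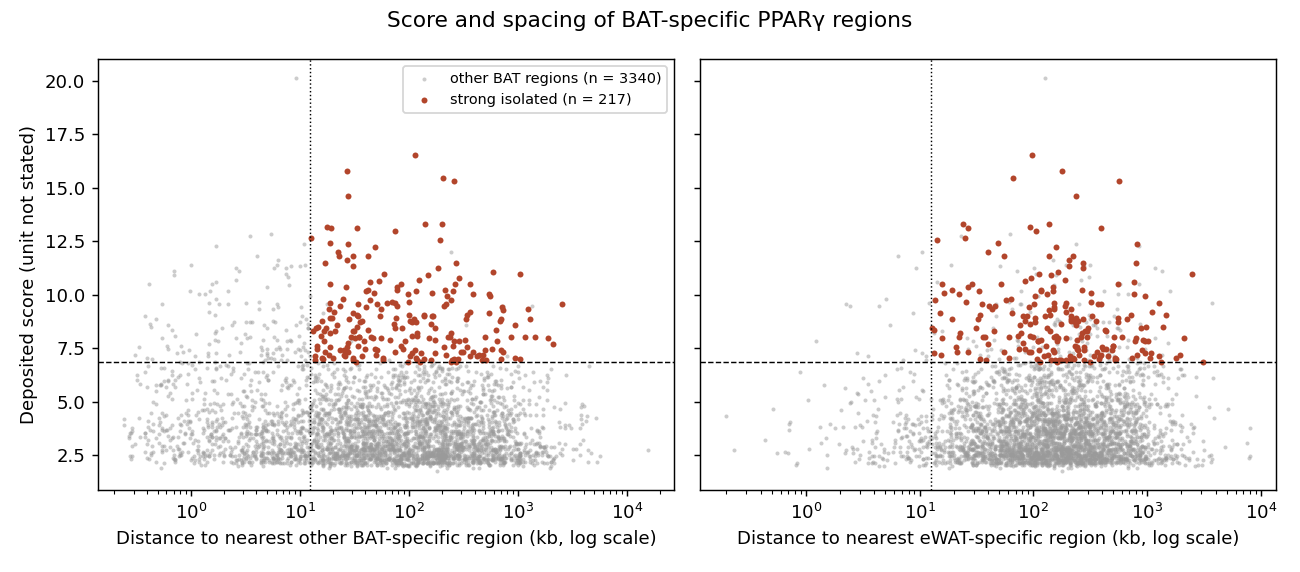
Deposited score (vertical axis, unit not stated) of each BAT-specific region against its distance in kb (log scale) to the nearest other BAT-specific region (left) and the nearest eWAT-specific region (right). The dashed line is the score threshold of 6.87 and the dotted line the neighbour distance of 12.5 kb. The 217 members (red) fill the upper right corner, and the highest score of the list, 20.12, lies just left of the dotted line in the left panel.

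The strongest region of the whole BAT list is not among the members. It lies at chr11:116615530-116615729 with a score of 20.12, and a weak BAT region with a score of 2.40 lies 9.30 kb away. The next 9 regions by score were all members, so 9 of the 10 highest BAT scores belong to isolated regions (interval 55.5 to 99.7%). Of the 20 highest, 15 were members (75%, interval 50.9 to 91.3%), and of the 50 highest, 29 were (58%, interval 43.2 to 71.8%). Isolated regions made up 59.6% of all regions at or above the threshold and 71.7% of the whole BAT list. Both shares lie within each of these intervals. Score and spacing chose the members, and the highest-scoring regions are part of the lists set beside them. The counts are therefore a description, and nothing is concluded from them on whether the strongest regions are more often isolated. Spacing to other BAT regions accounted for most of the strong regions left out. Of 364 regions at or above the threshold, 147 were not isolated: 129 had a close BAT neighbour alone, 9 a close eWAT neighbour alone and 9 had close neighbours from both lists. The scores of the 147 had the same median as those of the members, 8.45, and quartiles of 7.46 and 9.58.

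The strongest member lay at chr7:104563056-104563255, with a score of 16.55. Its nearest BAT region was 112.8 kb away and scored 3.09, and its nearest eWAT region was 97.9 kb away and scored 5.92. No other BAT region lay within 100 kb of it. The third member by score, at chr14:68244354-68244553 (score 15.45), had its nearest BAT region at 207.3 kb and its nearest eWAT region at 65.7 kb. The fourth, at chr2:79209313-79209512 (score 15.31), stood in a sparse stretch, with the nearest BAT region at 258.6 kb, the nearest eWAT region at 568.1 kb and 1 BAT region within 1 Mb. The region at chr18:75198789-75198988 (score 13.32) had neighbours at 140.6 kb (BAT) and 137.6 kb (eWAT). The region at chr8:37748100-37748299 (score 12.98) had a BAT neighbour at 74.5 kb and an eWAT neighbour at 104.8 kb. These 5 are the members among the 20 strongest with no deposited region of either list within 50 kb.

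Most of the 20 strongest members did have another BAT region between 12.5 and 50 kb away. There were 13 such members (65.0%, interval 40.8 to 84.6%), beside 38.7% of all 217 members and 29.7% of all isolated BAT regions. Of the 112 members at or above the 95th percentile of the BAT list, 39.3% had a BAT region within 50 kb. The 20 were picked by score, and the differences were not tested. Of the 13 members, 9 had no eWAT region within 50 kb. The second-strongest member, at chr5:38669585-38669784 (score 15.80), was paired with another member at chr5:38696594-38696793 (score 11.61), 27.0 kb away. For the other 8 the nearest BAT region was a weaker one. The member at chr4:55674933-55675132 (score 14.63) had a region of score 3.91 at 27.5 kb. On chromosome 14, chr14:67140752-67140951 (score 13.12) had one of score 2.13 at 19.4 kb. The member at chr14:79580373-79580572 (score 11.81) had 6 BAT regions within 100 kb, the nearest at 22.7 kb with a score of 4.46. On chromosome 18, chr18:62018956-62019155 (score 13.19) had a BAT region at 17.8 kb and chr18:74924103-74924302 (score 11.81) had one at 31.0 kb. Those 2 neighbours scored 3.50 and 6.04.

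The remaining 3 of these 9 members lay on chromosomes 1, 10 and 5. At chr1:127411394-127411593 (score 12.36) the nearest BAT region was 27.6 kb away and the nearest eWAT region 817.2 kb away. The member at chr10:92535602-92535801 (score 12.22) had a strong BAT region, of score 7.35, at 48.6 kb. The member at chr5:17444536-17444735 (score 11.81) had a BAT region of score 4.60 at 41.9 kb.

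A further 4 of the 20 had regions of both lists within 50 kb. The member at chr12:81037687-81037886 (score 12.64) met the distance rule narrowly, with a BAT region at 12.6 kb, and it had 7 BAT regions within 100 kb, the highest of score 4.05. Its nearest eWAT region was 25.2 kb away. The member at chr2:30265077-30265276 (score 13.12) lay 33.4 kb from a BAT region and 26.8 kb from an eWAT region. The member at chr3:130974156-130974355 (score 12.43) lay 18976 bp from a BAT region and 49.2 kb from an eWAT region. At chr7:88229551-88229750 (score 12.02) the distances were 22.6 kb to BAT and 40.1 kb to eWAT.

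The last 2 of the 20, both on chromosome 6, had an eWAT region but no BAT region within 50 kb. The member at chr6:92824837-92825036 (score 13.32) had 3 eWAT regions within 100 kb, the nearest at 24.2 kb with a score of 2.09 in the eWAT list, and its nearest BAT region was 200.7 kb away. The member at chr6:5448871-5449070 (score 12.57) had an eWAT region of score 2.09 at 14.2 kb and its nearest BAT region at 193.8 kb. The eWAT scores cannot be set against the BAT scores, because the scale of neither list is stated.

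**Figure D2:**
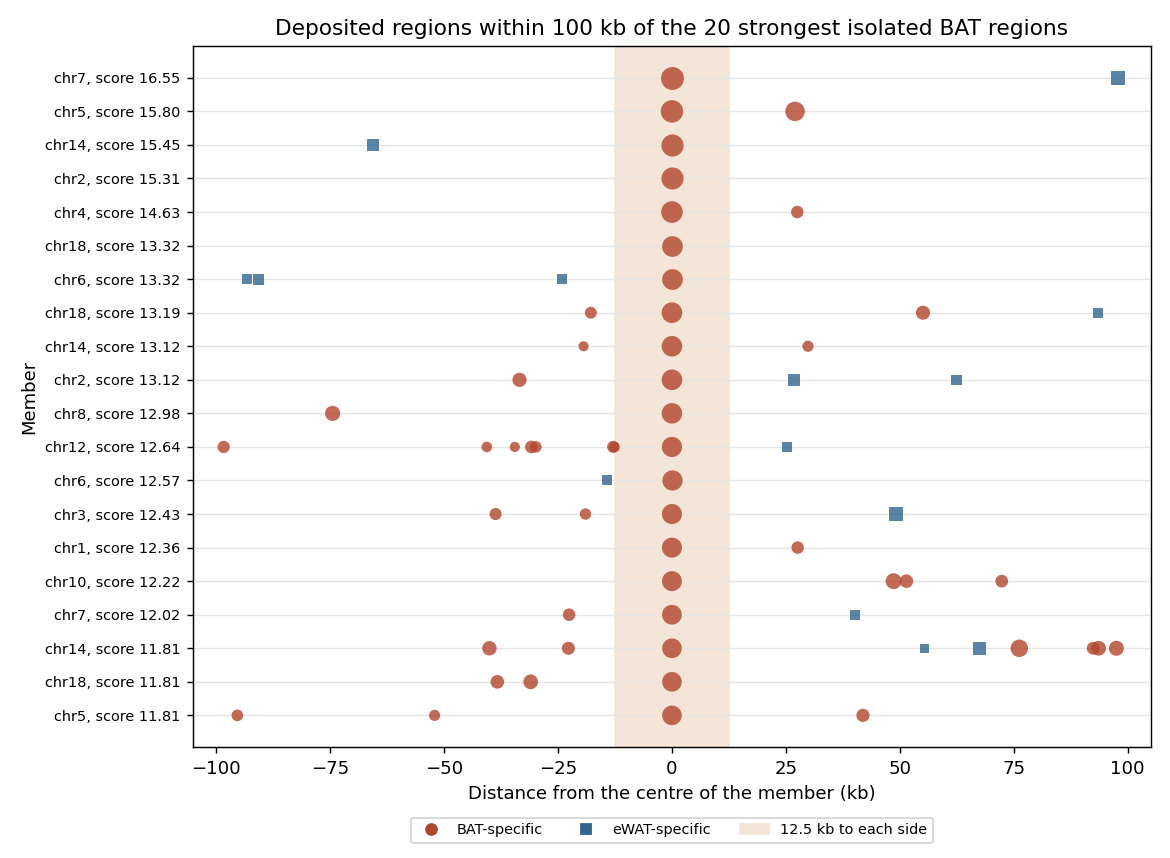
All deposited regions within 100 kb of the 20 strongest members, 1 row per member, with distance from the centre of the member in kb on the horizontal axis. Circles are BAT-specific and squares eWAT-specific regions, larger symbols have higher scores within their list, and the shaded band is the 12.5 kb that the rule keeps free. The row of the chromosome 12 member (score 12.64) holds 7 BAT neighbours, whereas the rows with scores 15.31 and 13.32 (chromosome 18) hold none of either list.

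Across all 217 members, isolation at 12.5 kb did not mean isolation at larger distances. A BAT region lay within 50 kb of 84 members (38.7%, exact 95% interval 32.2 to 45.5%). Of all 2551 isolated BAT regions, 29.7% had a BAT region within 50 kb, and of the 2334 weaker isolated ones, 673 did (28.8%, interval 27.0 to 30.7%). Within 25 kb a BAT region was found for 37 members (17.1%, interval 12.3 to 22.7%) and for 12.7% of weaker isolated regions (interval 11.4 to 14.1%). Within 100 kb it was found for 114 members (52.5%, interval 45.7 to 59.3%) and for 44.9% of weaker isolated regions (interval 42.9 to 46.9%). An eWAT region lay within 50 kb of 40 members (18.4%, interval 13.5 to 24.2%), against 17.4% of all isolated BAT regions and 17.3% of the weaker ones (interval 15.8 to 18.9%). For BAT neighbours the members' share was the higher at all 3 distances, but the intervals were apart at 50 kb alone and overlapped at 25 and 100 kb. Isolated regions just below the threshold, with scores of 5.36 to 6.80, had a share of 29.5% at 50 kb. Its interval, 23.9 to 35.5%, overlapped that of the members. For eWAT neighbours within 50 kb the shares were close. Neighbouring regions are not independent of each other, and the difference was not tested.

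Of the members, 74 had a BAT but no eWAT region within 50 kb, 30 had an eWAT but no BAT region, 10 had both and 103 had neither. The nearest BAT region lay at a median of 87.1 kb from a member (quartiles 30.6 and 254.6 kb), and at a median of 127.2 kb from a weaker isolated BAT region (quartiles 42.7 and 335.7 kb). The 95% intervals of these medians, from order statistics, were 58.7 to 115.1 kb and 117.6 to 137.2 kb. The nearest eWAT region lay at a median of 165.0 kb from a member and 158.5 kb from a weaker isolated region (intervals 141.6 to 212.4 kb and 149.0 to 169.9 kb). For 135 members (62.2%, interval 55.4 to 68.7%) the nearest region of either list was a BAT region, compared with 1304 weaker isolated regions (55.9%, interval 53.8 to 57.9%).

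Up to 50 kb, members had more BAT neighbours per Mb than weaker isolated regions did, with intervals that did not overlap. In the flanks between 12.5 and 25 kb, members had 9.59 BAT regions per Mb (52 regions, Poisson interval 7.16 to 12.6) and weaker isolated regions had 6.08 (interval 5.47 to 6.75). Between 25 and 50 kb the densities were 7.93 (interval 6.34 to 9.79) and 5.14 per Mb (interval 4.74 to 5.57). Between 50 and 100 kb they were 3.96 and 4.01 per Mb, and between 500 and 1000 kb 1.95 and 2.09 per Mb. Between 100 and 200 kb the members' density was the higher, 3.46 (interval 2.93 to 4.06) against 3.18 (interval 3.02 to 3.35). Between 200 and 500 kb it was the lower, 2.08 (interval 1.84 to 2.34) against 2.36 (interval 2.28 to 2.45). The intervals overlapped at both of these distances. The density of eWAT regions about members was 3.50 per Mb at 12.5 to 25 kb (19 regions, interval 2.11 to 5.47), 2.12 at 50 to 100 kb and 2.41 at 500 to 1000 kb. About weaker isolated regions it was 2.72, 3.08 and 2.38 per Mb at the same distances. At 50 to 100 kb the members' interval for eWAT regions, 1.55 to 2.83, lay just below that of weaker isolated regions, 2.86 to 3.31. At 100 to 200 kb the members' density was the higher, 3.23 against 2.95 per Mb, with overlapping intervals. The shares with an eWAT region within 100 kb also had overlapping intervals (31.3%, 25.2 to 38.0%, against 34.9%, 32.9 to 36.8%). A neighbour of several regions counts more than once in the densities, so their intervals may be too narrow, and no difference was tested.

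**Figure D3:**
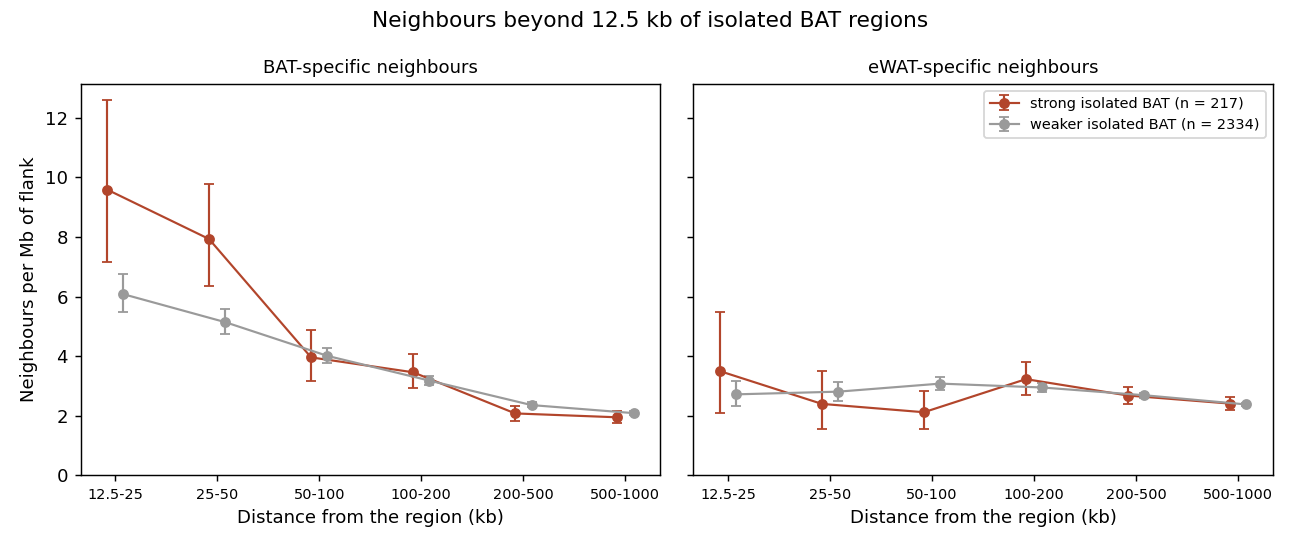
Number of BAT-specific (left) and eWAT-specific (right) regions per Mb of flank, by distance from 217 strong isolated (red) and 2334 weaker isolated (grey) BAT regions. Points are densities and bars exact 95% Poisson intervals on the summed neighbours, in which a neighbour of several regions counts more than once. The red points lie above the grey ones for BAT neighbours at 12.5 to 25 kb (9.59 against 6.08 per Mb) and 25 to 50 kb, and near them farther out.

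The mirror set in white fat, built by the same rule, held 352 of 4711 eWAT-specific regions. Its threshold was a score of 5.57 in the eWAT list. Of these, 124 (35.2%, interval 30.2 to 40.5%) had another eWAT region within 50 kb, beside 892 of the 3260 weaker isolated eWAT regions (27.4%, interval 25.8 to 28.9%). A BAT region lay within 50 kb of 45 (12.8%) and 405 (12.4%) of them. In both depots, then, strong isolated regions had a larger share with a same-depot neighbour between 12.5 and 50 kb than weaker isolated ones, and a similar share with a neighbour from the other depot. Whether the depots differ in this was not tested, and the lists differ in length and in score steps. The lowest eWAT scores found nearest to BAT members were 1.74, 2.09, 2.44 and 2.79, a coarser spacing than the BAT step of 0.0687. The same percentile may therefore not pick regions of like strength in the 2 lists.

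The part of the BAT list that the members were drawn from is described next. Score and spacing are the values that chose the members, so these shares are a description with no test. Isolated regions made up 71.7% of the whole BAT list. They were 59.6% of the 364 regions at or above the threshold (interval 54.4 to 64.7%) and 73.1% of the 3193 below it (interval 71.5 to 74.6%). A close BAT neighbour was found at 37.9% of the strong and 22.3% of the other regions, whereas a close eWAT neighbour was found at 4.95% and 5.57%. When the BAT list was divided into 10 score classes, the share isolated was 77.1% in the lowest class and between 68.8 and 79.1% in classes 2 to 9. It was 59.6% in the highest. Among isolated regions alone, the share with a BAT region within 50 kb was 23.0% in the lowest class. It lay between 24.2 and 32.5% in classes 2 to 9, with 29.5% in class 9 (interval 23.9 to 35.5%). In class 10, which are the members, it was 38.7% (interval 32.2 to 45.5%), and this interval overlapped that of class 9. For eWAT regions the share was 18.9% in the lowest class, between 14.5 and 19.9% in classes 2 to 9, and 18.4% in class 10. In the strong eWAT list, 70.1% of 502 regions were isolated, and 77.5% of the 4209 weaker ones.

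**Figure D4:**
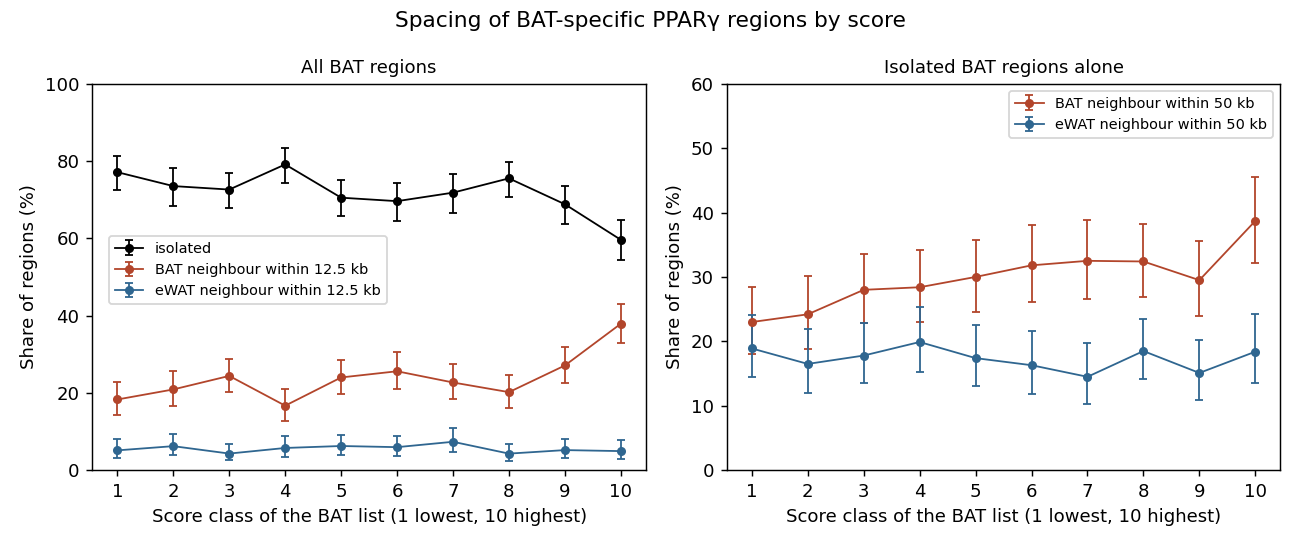
Share of BAT-specific regions in percent by score class, from 1 (lowest scores) to 10 (highest), with exact 95% binomial intervals. Left, all BAT regions that were isolated (black) or had a BAT (red) or eWAT (blue) neighbour within 12.5 kb; right, isolated regions alone with a neighbour within 50 kb. Class 10 has the lowest share isolated (59.6%) and the highest shares with BAT neighbours (37.9% left, 38.7% right), and the eWAT shares show no such rise. In the right panel the class 10 interval for BAT neighbours overlaps that of class 9.

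The BAT regions nearest to members had scores much like those of the BAT list as a whole. The BAT region nearest to a member had a median score of 3.57, the same as the median of the whole BAT list, and for weaker isolated regions the figure was 3.50. Among the 114 members with a BAT region within 100 kb, that nearest region was itself at or above the threshold in 15 cases (13.2%, interval 7.56 to 20.8%). The share was 8.87% for weaker isolated regions (93 of 1048) and strong regions are 10.2% of the list. Intervals overlap, and no difference can be read at this number of regions.

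The median distance between a member and the next member was 3.59 Mb, a value that depends on there being 217 of them, and 15 members had another within 100 kb, in 8 pairs. Besides the chromosome 5 pair described above, the closest pairs were on chromosome 6 (chr6:112224397-112224596, score 8.31, and chr6:112254870-112255069, score 9.13, 30.5 kb apart) and on chromosome 9 (chr9:121941233-121941432, score 11.33, and chr9:121971820-121972019, score 6.94, 30.6 kb apart). On chromosome 11, members at 86685342 (score 9.75) and 86729688 (score 8.38) lay 44.3 kb apart. On chromosome 15, members at 11807089 (score 9.48) and 11884156 (score 10.23) lay 77.1 kb apart. No region of either list lay between the members of these 5 pairs. Chromosome 18 held 3 members in a row, starting at 61543325 (score 10.16), 61583971 (score 9.48) and 61646823 (score 6.94), with 2 other BAT regions between the second and the third. The remaining pair, on chromosome 14, was 62.8 kb apart and joined the threshold member at 73968630 to one at 74031456 (score 9.61).

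Remote regions were found among members and weaker isolated regions alike. No deposited region of either list lay within 100 kb of 66 members (30.4%, interval 24.4 to 37.0%) and of 844 weaker isolated regions (36.2%, interval 34.2 to 38.1%). No other BAT region lay within 1 Mb of 9 members (4.15%) and 162 weaker isolated regions (6.94%). No eWAT region lay within 1 Mb of 14 members (6.45%) and 141 weaker isolated regions (6.04%), and the intervals overlapped for each of these 3 pairs of shares. The member farthest from any BAT region was at chr1:34462084-34462283 (score 9.55), with 2.52 Mb to the next. It was followed by chr18:23973993-23974192 (score 7.69, 2.09 Mb), which had an eWAT region 40.1 kb away, and by chr19:61022652-61022851 (score 7.97, 1.88 Mb). Only 2 members (0.922%) had neither list within 1 Mb, beside 32 weaker isolated regions (1.37%). The 2 were the chromosome 19 region, with its nearest eWAT region at 2.13 Mb, and chr10:102148590-102148789 (score 10.99), with 1.05 Mb to a BAT and 2499 kb to an eWAT region. The member farthest from white-specific binding was chr14:98805602-98805801 (score 6.87), 3.12 Mb from an eWAT region and 99.0 kb from a BAT region. These pairs and remote members were picked after their values were seen.

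The regions next to a member on its left and right were from different lists about as often as for weaker isolated BAT regions. Of the 213 members with a deposited region on either side, 64 (interval 24.0 to 36.7% of them) were flanked by BAT regions on both sides and 45 (21.1%, interval 15.8 to 27.2%) by eWAT regions on both sides. The others (48.8%) had a BAT region on one side and an eWAT region on the other. Of weaker isolated BAT regions, 28.4% had BAT regions on both sides, 25.8% had eWAT regions on both and 45.8% had a region of each list. The intervals overlapped for each.

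All 20 chromosomes with BAT-specific regions held members. Chromosomes 2 and 5 had the most, 18 each, followed by chromosome 1 with 17 and chromosome 6 with 15. Members on chromosome 5 were 8.29% of all members (interval 4.99 to 12.8%), where 5.90% of all BAT regions lie. Chromosome 18 held 12 members, 5.53% (interval 2.89 to 9.46%) against 4.02% of all BAT regions, among them 3 of the 20 strongest. Chromosome 14 also held 3 of the 20 strongest, and its 10 members were 4.61% of all members, against 4.61% of all BAT regions. Chromosome 19 held 4 and chromosome X held 2, at chromosome shares of 1.84% and 0.922%. On each of the 20 chromosomes the share of all BAT regions lay within the interval of the members' share, so no departure from the list as a whole was detectable with 217 regions.

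**Figure D5:**
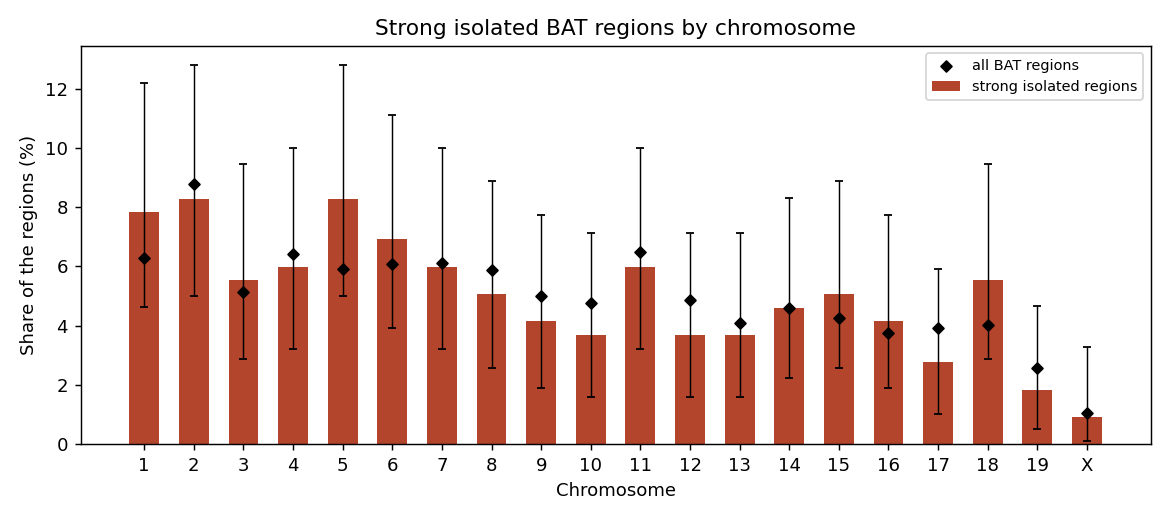
Share in percent of the 217 members on each chromosome (bars, with exact 95% binomial intervals) and of all 3557 BAT-specific regions (diamonds). Every diamond lies within its interval, also on chromosome 5, where the bar exceeds the diamond by the most (8.29% against 5.90%).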

How the data were processed

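PPARγ ChIP-seq was analysed from 1 pooled library per depot, grouped by the labelled tissue. Each depot has a deposited headerless list of 200 bp regions with a position, a name and a score. The score was deposited by the authors without a unit, and no region has a value in the other depot's library. Per the submitters' processing notes, Bowtie and HOMER were used; their versions and roles are not given in the sources used, nor are the peak threshold and the rule for tissue-specific regions. Library depth is unknown.

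Distances were taken between region midpoints with Python 3.11.15, numpy 2.4.6 and pandas 2.3.3. The score step was fitted by least squares, and 99.9% of BAT scores were whole multiples of it within 0.005. Shares carry exact (Clopper-Pearson) 95% binomial intervals, which cover counting error only (scipy 1.17.1). Distance and step calculations were tested on simulated data. The simulated step lay outside the narrower range searched for the BAT scores, so the fit was not tested at that setting. No test between classes was run.

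The members and lists were chosen with earlier results of these data known. Regions named are the 20 highest-scoring members and the 5 just inside and outside the threshold; others are said to be picked later. Planned gene assignment, gene lists and motif searches were not run, for want of a table of the build. Alternatives were other distances, percentiles, a BAT-only spacing rule and autosomes alone; a strict threshold, and the spacing shares under other settings, were added after seeing the data.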

Additional observations from a re-analysis of the deposited data

How the results depend on the processing

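The number of strong isolated BAT regions (217) was 280 with a neighbour distance of 5 kb, 163 with 25 kb and 103 with 50 kb. It was 468 at the 80th percentile and 112 at the 95th, 226 with spacing to BAT regions alone, and 212 with scores above the threshold only, an alternative added after seeing the data. The share of members with a BAT region within 50 kb (38.7%) was 33.8% at the 80th and 39.3% at the 95th percentile, and the share with an eWAT region was 16.7% and 22.3%. The median distance to the nearest eWAT region fell from 165.0 to 141 kb at the 95th percentile. The share isolated among strong regions lay below that among the rest at each distance run, with 76.9% against 83.9% at 5 kb, 44.8% against 59.7% at 25 kb and 28.3% against 42.4% at 50 kb. Leaving out chromosome X removed only 2 of the 217 members, so no other chromosome's share could move far, and none left its interval. Alternatives for gene positions and motifs were not run. No paired analysis was possible because the depots have a single pooled library each, and for that reason none could be left out.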
